A study of Homo sapiens with 16 samples.

Results

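HMOX1 and the oxidative stress genes that are usually read with it were followed in MCF10A cells over the hours after a HER2 kinase inhibitor was added. The genes are NFE2L2, HMOX1, GCLM, GCLC, TXNRD1, NQO1, AKR1B10, AKR1C1, AKR1C2 and AKR1C3, and every row of the intensity table that carries 1 of these 10 symbols was taken. Of the 10 symbols, 9 had a row, with 1 probe each, out of 18190 symbols in the table, and AKR1C2 was not analysed here. The list was chosen by the HMOX1 levels measured on these arrays, which were already known to be lower at late times, so the values of HMOX1 are a description and carry no test.

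MCF10A is a line of human mammary epithelial cells that is not transformed. All cultures were in Ham's F-12 with bovine serum albumin, insulin, EGF, hydrocortisone, transferrin, T3, selenium and ethanolamine. The 0 hour culture was untreated, and the others received CP724,714, a small molecule that blocks the kinase of HER2, at 1 µM, with RNA taken from parallel cultures every 3 hours to 45 hours. Each of the 16 time points had 1 Illumina human Ref8v2 array. The medium was changed when treatment began and no series without the inhibitor was analysed, so the inhibitor, the medium change and time in culture cannot be told apart. No time point had a replicate. Levels are therefore compared between windows of neighbouring times (0 to 3, 6 to 9, 12 to 21, 24 to 33 and 36 to 45 hours), whose spread also holds the change within a window, and the first window joins the untreated culture with the culture treated for 3 hours. A level below is a log2 intensity after background correction and quantile normalization. A probe was counted as detected on an array at a detection p under 0.05. Levels of different probes are not comparable with each other.

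The median deposited intensity of an array lay between 210 and 254, and 50.1% to 52.9% of the rows were detected on an array. Of the markers of basal mammary epithelium, 5 of 7 were detected on all 16 arrays, among them KRT5 and KRT17, while TP63, listed as TP73L, was detected on 10 arrays and KRT14 on 1. All 5 general epithelial markers were detected on every array. Of 7 fibroblast markers 6 were detected on no array and DCN on 5, and the summed linear level of the list lay between 316 and 362. Of 5 leukocyte markers CD68 was detected on 16 arrays, CD14 on 12, PTPRC on 5 and CD3E and CD79A on none, with a summed level of 706 to 1584. Of 4 endothelial markers PECAM1 and KDR were detected on 15 arrays each and CDH5 and VWF on none, with a summed level of 228 to 364. EGFR was detected on 16 arrays and ERBB2, the gene of HER2, on 11.

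NFE2L2 encodes NRF2, the transcription factor that carries the response to oxidants and electrophiles. In resting cells KEAP1 holds NRF2 for degradation. When its cysteines are modified, NRF2 accumulates, pairs with small MAF proteins and binds antioxidant response elements, where BACH1 acts as a repressor. Because this control acts largely on the protein, the NFE2L2 transcript is not a direct reading of NRF2 activity. The targets make glutathione, reduce thioredoxin and quinones and degrade haem, which is the reaction of haem oxygenase 1, the product of HMOX1.

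The RefSeq windows from 250 bases before to 50 bases after the transcription start (GRCh38.p14) were searched on both strands for the core of the antioxidant response element, TGACNNNGC. Entries were found for 8 of the 10 genes, with 11 windows in all, and HMOX1 and AKR1B10 had none. The core was found in 3 of the 11 windows (27.3%) and in 4687 of the 35116 windows of the whole table (13.3%). The stretches around these matches, from GCLM and TXNRD1, are shown as the ones that hold the letters. The windows of NQO1, GCLC, AKR1C1, AKR1C2, AKR1C3 and NFE2L2 held none, and sequence outside the windows was not searched. Whether a match goes with a course over time was not tested. Each stretch is written 5′ to 3′ on the strand of the gene, with the match in capitals. The first lies on the minus strand at chr1:93909431-93909494, and the others on the plus strand at chr12:104215650-104215718 and chr12:104286900-104286968.
GCLM: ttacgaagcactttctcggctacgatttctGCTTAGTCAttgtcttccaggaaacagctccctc
TXNRD1, upstream start: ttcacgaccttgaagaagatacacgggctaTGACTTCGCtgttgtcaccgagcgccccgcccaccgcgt
TXNRD1, downstream start: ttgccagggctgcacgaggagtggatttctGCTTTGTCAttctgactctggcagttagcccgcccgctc
The window of the upstream TXNRD1 start holds a second match that covers bases -8 to 1. A match of these letters is a description and does not show that NRF2 binds there.

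HMOX1 was high for the first 3 hours and low from then on. Its level was 10.69 in the untreated cells and 10.83 at 3 hours, and then 8.18 at 6 hours, 6.79 at 9 hours and 5.88 at 12 hours. From 15 to 24 hours it read 6.33, 6.30, 6.45 and 6.67, and from 27 to 33 hours 6.49, 6.27 and 6.33. At 36, 39, 42 and 45 hours it read 6.87, 6.85, 6.86 and 6.71. The first 2 arrays stand apart from all later ones, and no array after 3 hours came back to their level. As deposited, the intensity was 1691 at 0 hours, 1811 at 3 hours, 463 at 6 hours and 293 at 9 hours, with a median over all 16 arrays of 257. At 12 hours it was 220 and not well above background, the only array on which HMOX1 was not detected.

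**Figure D1:**
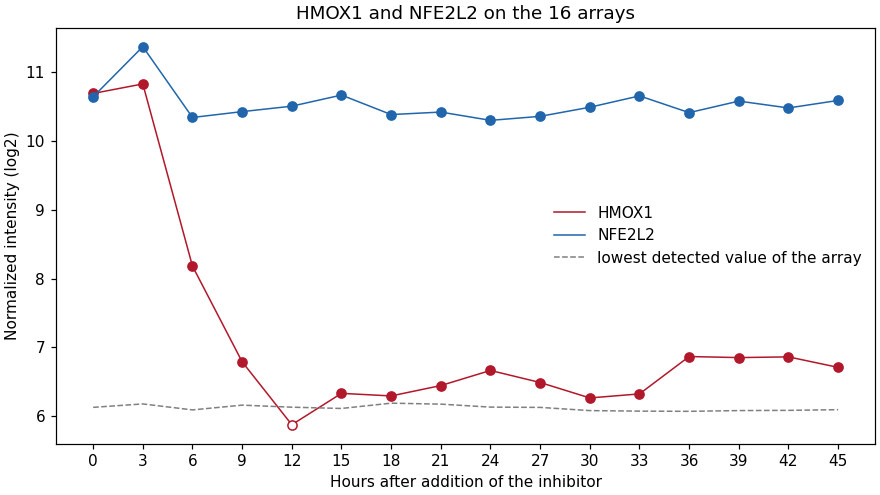
Log2 intensity (vertical axis) of HMOX1 and of NFE2L2 against hours after addition of the inhibitor (horizontal axis), with 1 point for each array, open where not detected, and a dashed line at the lowest detected level of the array. HMOX1 goes from 10.83 at 3 hours to 5.88 at 12 hours and stays below 7 from 9 hours on, while NFE2L2 has its highest value, 11.37, at 3 hours and lies between 10.30 and 10.66 on all other arrays.

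Against its mean of 10.76 ± 0.10 (SD, n = 2 arrays) at 0 to 3 hours, HMOX1 was 9.65-fold lower at 6 to 9 hours (7.49 ± 0.98, n = 2). That log2 difference, -3.27, rests on 2 unlike arrays and was -3.97 with the 6 hour array left out and -2.58 with that of 9 hours left out. It was at least 21.9-fold lower at 12 to 21 hours, where 3 of 4 arrays detected it and the level was 6.24 ± 0.25 (n = 4). At 24 to 33 hours the level was 6.44 ± 0.18 (n = 4), and at 36 to 45 hours, with 6.82 ± 0.08 (n = 4), it was 15.3-fold lower than at the start. Between the arrays of 3 and 12 hours, the extremes, the ratio was at least 25.9-fold. The folds depend on the background: in the deposited intensities, before any correction, the first window was 4.63, 7.17, 7.11 and 6.43 times the later 4. Without background correction the log2 range from highest to lowest array was 3.23, against 4.95 with it. Within the low phase all 4 arrays of 36 to 45 hours lay above the 4 arrays of 24 to 33 hours, by 0.39 log2 units on average, with levels close to the background.

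The step from 3 to 6 hours, -2.65 on the log2 scale, was larger than the steps that followed, -1.39 from 6 to 9 hours and -0.91 from 9 to 12 hours. At the step from 3 to 6 hours 99.98% of the tested probes had a higher log2 difference than HMOX1. Between 0 and 3 hours, the interval that holds the start of treatment and the medium change, HMOX1 differed by 0.14 log2 units.

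NFE2L2 showed no such course. Its level was 10.64 in the untreated cells, 11.37 at 3 hours and 10.34 at 6 hours, and from 9 to 45 hours it lay between 10.30 and 10.66. Only the 3 hour array stands above the others, by more than the range of all the rest. The highest array was 2.10-fold above the lowest. The curve over time was not called for NFE2L2 (limma F-test on a spline of time, adjusted p = 0.19).

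The other genes were tested in the same fits, with p-values from limma adjusted by the Benjamini-Hochberg method over all 11957 probes detected on at least 3 arrays and called under 0.05. HMOX1 and 7 other genes of the list passed this filter and AKR1C1 did not, so that counts below are over 7 genes without HMOX1. The curve over time was called for 4 of 7, NQO1 (adjusted p = 0.00069), GCLC (0.0069), AKR1C3 (0.00092) and AKR1B10 (1.1e-06). Of all probes, 54.7% were called. A spline with 5 degrees of freedom in place of 3, which can follow an early peak, also called GCLM (adjusted p = 0.0057), as did leaving out the untreated array (0.0033). The curve of TXNRD1, not called (adjusted p = 0.19), was called with median scaling (0.017) and without the 6 hour array (0.0084).

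**Figure D2:**
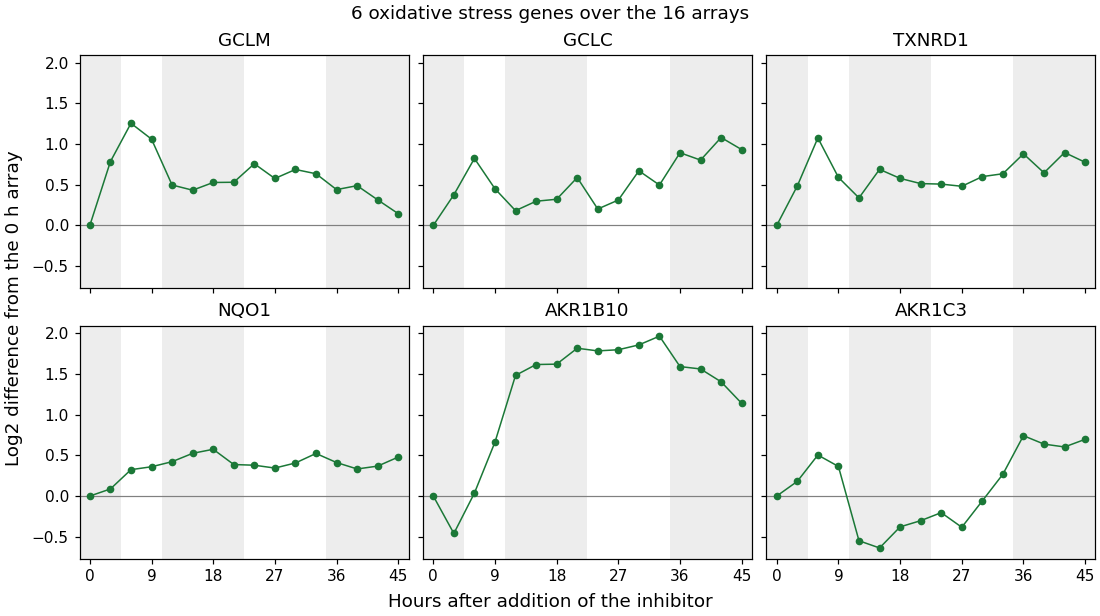
Log2 difference from the 0 hour array (vertical axis) of GCLM, GCLC, TXNRD1, NQO1, AKR1B10 and AKR1C3, in a panel each, against hours after addition of the inhibitor (horizontal axis), with 1 point for each array and shading over 0 to 3, 12 to 21 and 36 to 45 hours. GCLM and TXNRD1 are highest at 6 hours, NQO1 at 18 hours, AKR1B10 at 33 hours, AKR1C3 at 36 hours and GCLC at 42 hours.

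GCLM and GCLC encode the modifier and the catalytic subunit of glutamate-cysteine ligase, the rate-limiting enzyme of glutathione synthesis, and their courses differed. GCLM read 9.96 in the untreated cells, 10.74 at 3 hours, 11.22 at 6 hours and 11.02 at 9 hours. It lay between 10.39 and 10.72 from 12 to 39 hours and read 10.27 at 42 and 10.10 at 45 hours. The 6 hour array exceeded that of 0 hours 2.39-fold. GCLC read 9.61, 9.98, 10.43 and 10.06 on the first 4 arrays, lay between 9.79 and 10.28 from 12 to 33 hours, and read 10.50, 10.41, 10.69 and 10.54 from 36 hours on. GCLM was thus highest early, while 3 of the 4 latest GCLC arrays lie above every earlier one.

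TXNRD1, the cytosolic thioredoxin reductase, was highest at 6 hours, and its highest later array was that of 42 hours. Its change from 24 to 33 to 36 to 45 hours was not called (0.24, limma adjusted p = 0.084). It read 10.04 at 0 hours, 10.52 at 3 hours, 11.11 at 6 hours and 10.63 at 9 hours, lay between 10.38 and 10.73 from 12 to 33 hours, and read 10.92, 10.68, 10.93 and 10.81 from 36 hours on. The untreated array was the lowest and the 6 hour array was 2.11-fold above it. NQO1, a quinone reductase, moved least. It read 12.44 in the untreated cells, 12.53 at 3 hours and 12.77 at 6 hours, reached 13.02 at 18 hours, which is 1.49-fold above 0 hours, and lay between 12.78 and 12.97 from 21 hours on. Both arrays of the first window were below all 14 later ones.

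Among the aldo-keto reductases, AKR1B10, which reduces aldehydes and retinal, went from 7.65 at 0 hours and 7.19 at 3 hours to 7.69, 8.31 and 9.13 at 6, 9 and 12 hours. It lay between 9.24 and 9.62 from 15 to 36 hours and read 9.21, 9.05 and 8.79 on the last 3 arrays. The array of 33 hours exceeded that of 3 hours 5.38-fold, the widest range among the genes of the list other than HMOX1. AKR1C3, which reduces ketosteroids and prostaglandins, read 13.44, 13.62, 13.95 and 13.81 on the first 4 arrays and 12.89, 12.80, 13.06 and 13.14 from 12 to 21 hours. It read 13.24, 13.06, 13.38 and 13.71 from 24 to 33 hours and 14.19, 14.08, 14.05 and 14.14 from 36 hours on. Its course was a dip and a return to a level above the start, with 2.61-fold between 36 and 15 hours. AKR1C1, a closely related hydroxysteroid dehydrogenase, was detected on no array, with deposited intensities of 151 to 212. AKR1C1, AKR1C2 and AKR1C3 are closely related paralogs, so whether the AKR1C3 probe also binds transcripts of the others was not tested. The probe sequences were not used here.

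From 0 to 3 to 6 to 9 hours, 5 of the 7 genes changed, 4 upward and 1 downward, against 24.7% of all probes called (13.5% higher and 11.1% lower). The median log2 change was 0.45 for the 7 genes and -0.01 for all tested probes. GCLM rose 1.70-fold (log2 change 0.77, SE 0.17, limma adjusted p = 0.0023) and TXNRD1 rose 1.51-fold (0.59, SE 0.16, adjusted p = 0.0092). AKR1B10 rose by 0.58 (SE 0.20, adjusted p = 0.035) and NQO1 by 0.30 (SE 0.08, adjusted p = 0.0096). NFE2L2 fell by 0.62 (SE 0.17, adjusted p = 0.0098). GCLC, with a log2 change of 0.45 (SE 0.17, adjusted p = 0.058), and AKR1C3, with 0.34 (SE 0.14, adjusted p = 0.091), were not called. GCLC was called with median scaling (0.53, adjusted p = 0.023), and with the array of 3 hours (0.64, 0.019), 9 hours (0.64, 0.037) or 21 hours (0.45, 0.049) left out, and AKR1C3 with that of 33 hours left out (0.34, 0.027). In none of the 7 genes did the arrays of the windows overlap. The windows hold few arrays and the share of all probes without overlap was not computed, so this is only a description.

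These early calls rest on few arrays. Without the untreated array 2 of the 7 genes were called: the limma log2 change was 0.37 for GCLM (adjusted p = 0.068), 0.35 for TXNRD1 (0.18) and 0.26 for NQO1 (0.087). Without the 6 hour array 3 were called, and TXNRD1 (0.35, adjusted p = 0.16) and NFE2L2 (-0.58, adjusted p = 0.053) were lost. Without the 3 hour array the change of NFE2L2 was -0.26 (adjusted p = 0.22), that of AKR1B10 0.35 (0.27) and that of GCLM 1.16. The change of NFE2L2 was -0.99 without the untreated array, and that of AKR1B10 0.89 without the 6 hour array. The call of AKR1B10 was also lost without the 9 hour array (0.27, adjusted p = 0.46) and without background correction (0.32, adjusted p = 0.077), and that of NQO1 without the 9 hour array (0.28, adjusted p = 0.068).

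From 6 to 9 to 12 to 21 hours, 3 of the 7 genes changed, against 25.4% of all probes (12.8% higher and 12.6% lower). AKR1B10 rose 2.44-fold (log2 change 1.29, SE 0.17, limma adjusted p = 3.3e-05). AKR1C3 fell by 0.90 (SE 0.12, adjusted p = 5.4e-05), a level 1.87-fold lower, and GCLM fell by 0.66 (SE 0.15, adjusted p = 0.0027). Without the 6 hour array GCLM was not called (-0.56, adjusted p = 0.064). NQO1, not called, was called with median scaling (0.26, adjusted p = 0.035), and TXNRD1 without the 9 hour array (-0.55, adjusted p = 0.018). Over this interval an aldo-keto reductase that rose stood beside another that fell.

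From 12 to 21 to 24 to 33 hours none of the 7 genes was called by limma, and 1, AKR1C3, had an unadjusted p under 0.05 (log2 change 0.37, adjusted p = 0.32). Only 8 of all 11957 probes were called (0.0669%, with 0.00836% higher and 0.0585% lower). With median scaling in place of quantile normalization, AKR1C3 was called (0.51, adjusted p = 0.035). Over the same times the median deposited intensity of rows that were detected on no array was 182 to 192 per array up to 21 hours and 161 to 179 from 24 hours on, and the part of this shift in the result was not tested.

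From 24 to 33 to 36 to 45 hours, 4 of the 7 genes changed, 2 in each direction, against 45.3% of all probes called (22.6% higher and 22.7% lower), so that the share among these genes is near that of the array. AKR1C3 rose 1.70-fold (log2 change 0.77, SE 0.10, limma adjusted p = 5.0e-06) and GCLC rose by 0.51 (SE 0.12, adjusted p = 0.0016). AKR1B10 fell by 0.43 (SE 0.14, adjusted p = 0.016) and GCLM fell by 0.32 (SE 0.12, adjusted p = 0.036). Without the 45 hour array 2 of the 7 were called, with AKR1B10 at -0.33 (adjusted p = 0.065). GCLM also lost its call without the 24, 30, 33 or 42 hour array and without the intensity trend in the prior variance, with adjusted p up to 0.12. Calls gained were those of NQO1 with median scaling (-0.20, adjusted p = 0.024) and of TXNRD1 (0.24) without the untreated or the 3 hour array (adjusted p = 0.044 and 0.045).

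Between the ends of the series, 36 to 45 against 0 to 3 hours, 6 of the 7 genes differed, 5 higher and 1 lower, against 35.3% of all probes called (18.4% higher and 16.8% lower). The median log2 change was 0.56 for the 7 genes and -0.01 for all tested probes. AKR1B10 was 3.15-fold higher (log2 change 1.66, SE 0.17, limma adjusted p = 5.9e-07), GCLC 1.67-fold (0.74, SE 0.15, adjusted p = 0.00058) and AKR1C3 1.50-fold (0.58, SE 0.12, adjusted p = 0.0013). TXNRD1 was 1.47-fold higher (0.56, SE 0.14, adjusted p = 0.0036) and NQO1 1.28-fold (0.35, SE 0.07, adjusted p = 0.00057). NFE2L2 was lower by 0.49 log2 units (adjusted p = 0.013 for a change of -0.49, SE 0.14). Without background correction the log2 change of AKR1B10 was 1.05, still called. The log2 difference of HMOX1 over the same windows was -3.93.

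GCLM was not called between the ends, with a log2 change of -0.05 and a 95% interval from -0.35 to 0.26. Its first 2 arrays differ by 0.78 log2 units, and the change was 0.35 without the 3 hour array (limma adjusted p = 0.044) and -0.44 without the untreated array (adjusted p = 0.012). Without the 3 hour array NFE2L2 was not called (-0.13, adjusted p = 0.53), without the untreated array its change was -0.85, and with median scaling its change was -0.30 (adjusted p = 0.10). With median scaling the split was 5 higher and 0 lower, and the median of all probes was 0.10. Without the untreated array TXNRD1 was not called (0.31, adjusted p = 0.13).

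**Figure D3:**
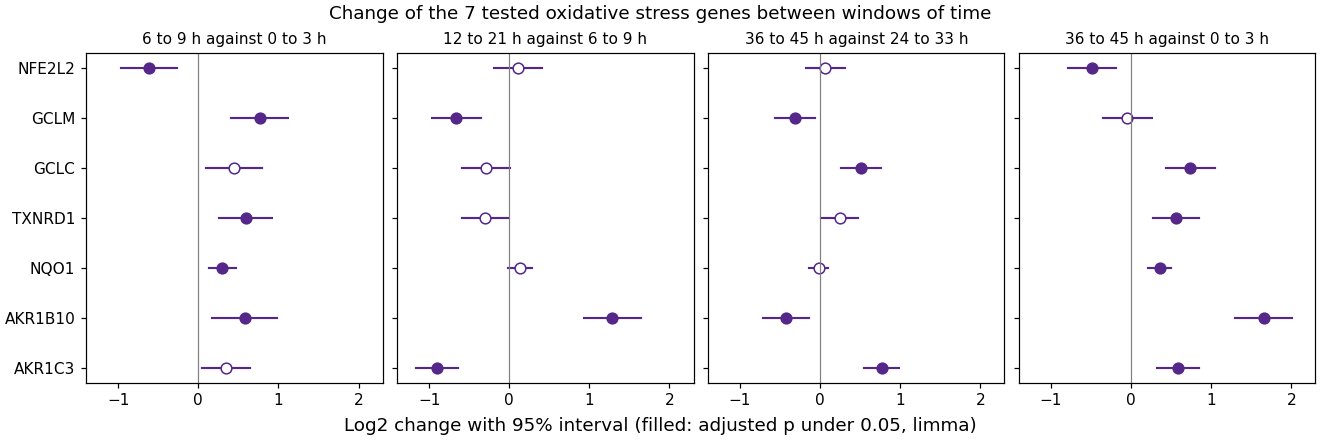
Log2 change (horizontal axis) with its 95% interval (bar) for each of the 7 tested genes (vertical axis), in a panel for each of 4 comparisons between windows, filled where limma's adjusted p was under 0.05. AKR1B10 has the largest changes, 1.29 from 6 to 9 to 12 to 21 hours and 1.66 between the ends of the series, and GCLM lies at -0.05 between the ends.

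Over the same 16 arrays, which share their time order, the Pearson correlation of HMOX1 was -0.90 with NQO1, -0.88 with AKR1B10, 0.65 with NFE2L2 and between -0.34 and 0.20 with the other 4. The values of NQO1, AKR1B10 and NFE2L2 rest on the first arrays. Over the 12 arrays from 12 hours on they were -0.42, -0.30 and -0.14. Over those 12 arrays HMOX1 correlated at 0.71 with GCLC, 0.73 with TXNRD1 and 0.77 with AKR1C3. Of these, GCLC and AKR1C3 rose from 24 to 33 to 36 to 45 hours and TXNRD1 was not called. At that step 45.3% of all probes were called. HMOX1 was close to the background on these 12 arrays, and the share of all probes with such a correlation was not computed. GCLC and TXNRD1 correlated at 0.82 over all arrays, and GCLM and GCLC, the subunits of 1 enzyme, at 0.04.

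The 5 probes most like HMOX1 by Pearson correlation over the 16 arrays were those of TNFSF7 (now CD70, a ligand of the TNF family), SLC6A9 (a glycine transporter), GNPDA1 (glucosamine-6-phosphate deaminase), NSDHL (a sterol synthesis enzyme) and LIF (a cytokine), with r of 0.96 to 0.97. From 0 to 3 hours to the mean of 12 to 45 hours their levels were lower by between 1.03 (NSDHL) and 1.75 (LIF) log2 units, a smaller difference than that of HMOX1. Over the arrays from 12 hours on their r lay between 0.14 (NSDHL) and 0.62 (LIF), so the likeness lies mainly in the early drop. The 3 most opposite were ADCY3 (an adenylyl cyclase, -0.97), RAP1GDS1 (-0.96) and SYT15 (-0.96). SYT15 went from 6.85 at 0 to 3 hours to a mean of 8.96 from 12 hours on.

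Another 82 genes of the NRF2 system and its neighbours were grouped in 7 lists: regulators, haem and iron, glutathione, thioredoxin and peroxiredoxins, NADPH supply, detoxification, and superoxide and peroxide removal. Of these 81 had a row, TXNRD3 was not analysed here, and 69 passed the filter. The curve over time was called for 49 of the 69, against the 54.7% of all probes given above. From 0 to 3 to 6 to 9 hours 4 of the 69 rose and 7 fell, with a median log2 change of -0.06, against 13.5% of all probes higher and 11.1% lower. From 6 to 9 to 12 to 21 hours 5 rose and 20 fell (12.8% and 12.6% of all probes), and in the next step 1, GLRX, rose and 0 fell (0.00836% and 0.0585%). GLRX lost this call with the array of 12, 15, 18, 24, 30 or 33 hours left out (limma adjusted p up to 0.13). From 24 to 33 to 36 to 45 hours 25 rose and 13 fell (22.6% and 22.7%). Between the ends of the series 16 were higher and 13 lower (21 and 11 with median scaling), against 18.4% and 16.8% of all probes, with a median log2 change of 0.02. The counts of single lists below stand against these same shares.

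**Figure D4:**
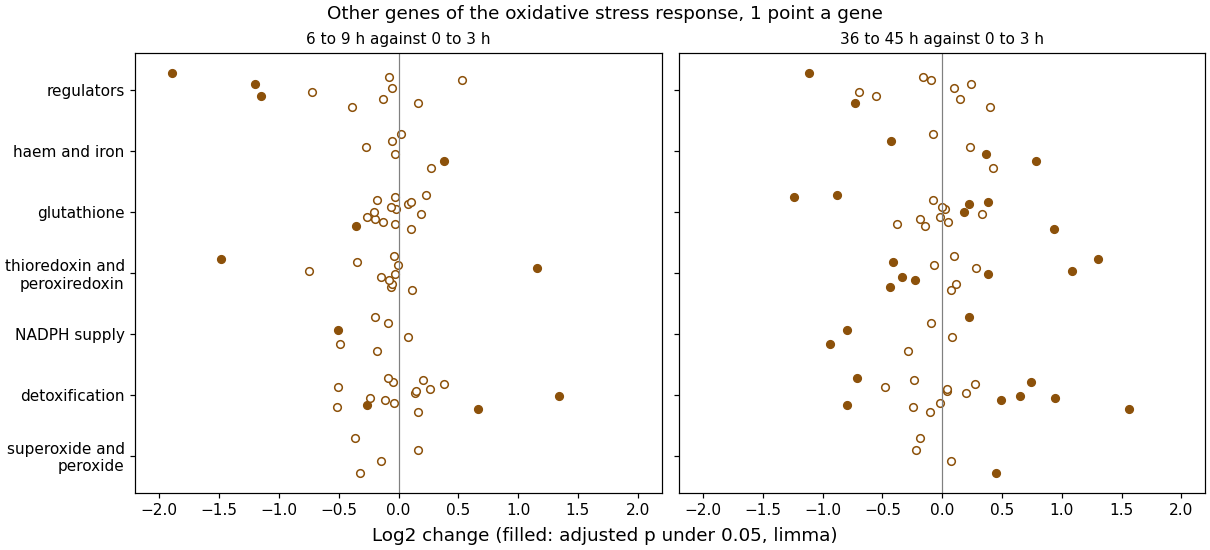
Log2 change (horizontal axis) of each tested gene of the 7 lists (rows), with 1 point a gene, at 6 to 9 hours (left) and at 36 to 45 hours (right) against 0 to 3 hours, filled where limma's adjusted p was under 0.05, and the height of a point within its row has no meaning. Early, 4 filled points lie to the right and 7 to the left of 0, and at the end 16 and 13.

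Of the 4 genes that rose by 6 to 9 hours, all named after their values were seen, CBR1, a carbonyl reductase, rose by 1.34 log2 units (limma adjusted p = 9.9e-06) and SRXN1, sulfiredoxin, which repairs oxidized peroxiredoxins, by 1.16 (4.8e-06). ABCC3, an exporter of conjugates, rose by 0.67 (adjusted p = 9.7e-05) and BLVRA, biliverdin reductase A, by 0.38 (0.0013). The SRXN1 levels of the 5 windows were 10.37, 11.53, 11.06, 11.08 and 10.65, a course like that of GCLM in that the second window was the highest. Among those that fell early, SQSTM1 and NFE2L1 changed most of the genes detected on every array, together with TXNIP. MAFF, a small MAF protein, was also called lower, but it was not detected on either array of 0 to 3 hours. Its mean level there was 7.07, above the 6.51 of 36 to 45 hours, where 3 of 4 arrays detected it. Detection thus did not follow level in this row, and no fold is given.

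Of 10 tested regulators, 6 had a called curve, and between the ends none was higher and 2 were lower. SQSTM1, which encodes p62, a protein that draws KEAP1 into autophagy, had window means of 12.21, 10.32, 9.70, 9.89 and 11.10. It fell by 1.90 log2 units from the first to the second window (limma adjusted p = 2.2e-05), rose by 1.21 from the fourth to the fifth (1.6e-05) and was still lower at the end (-1.12, adjusted p = 0.00055). GSK3B, a kinase that marks NRF2 for degradation, was lower at the end (-0.73, adjusted p = 0.00071), but not by the test without the 3 hour array (-0.33, adjusted p = 0.050). For BTRC, the substrate receptor that then binds NRF2, the end differed by 0.40 (adjusted p = 0.086). NFE2L1, a relative of NRF2 named after its values were seen, fell by 1.20 early (adjusted p = 2.6e-06) and rose by 1.27 from the fourth to the fifth window (6.4e-09). The curve of KEAP1 was not called (adjusted p = 0.58). BACH1 was detected on 1 array and CUL3 on none, so their course could not be read.

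Around haem and iron, 5 of 6 tested genes had a called curve, and 2 were higher and 1 lower at the end. BLVRA, which acts on the biliverdin that haem oxygenase makes, was higher by 0.78 (limma adjusted p = 8.1e-08), opposite in direction to HMOX1. FTH1, the ferritin heavy chain that stores iron, was not called in the first hours (log2 change -0.06, adjusted p = 0.78), fell by 1.27 from the second to the third window (3.8e-07) and rose by 0.77 from the fourth to the fifth (7.4e-07). At the end it was at 14.08 against 14.51 at the start (-0.43, adjusted p = 0.0036). FTL, the light chain, named after its values were seen, had window means of 15.45, 15.47, 14.58, 14.86 and 15.37. For ABCB6, a porphyrin transporter, the end differed by 0.43 (adjusted p = 0.056). HMOX2, the constitutive haem oxygenase, was detected on 1 array.

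In the glutathione list 11 of 15 tested genes had a called curve, and 4 were higher and 2 lower at the end. SLC3A2 and SLC7A11, the subunits of the cystine importer, were the 2 that were lower. SLC3A2 fell by 1.24 log2 units (limma adjusted p = 2.2e-08), and its other probe differed by -1.62. SLC7A11 was not detected on any array of 36 to 45 hours and was at least 1.37-fold lower there. It was detected only on the first 4 arrays and passed the filter through them. Its call at the end is therefore a description and is given without a p-value. GLRX, glutaredoxin, rose by 0.93 (adjusted p = 1.3e-06). Between the ends SLC3A2 thus moved opposite to GCLC (0.74), the catalytic subunit of the enzyme downstream of the importer. GCLM, the other subunit of that enzyme, was not called (-0.05).

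In the thioredoxin list 9 of 12 tested genes had a called curve, and 3 were higher and 4 lower at the end. TXNIP, which binds and inhibits thioredoxin, fell by 1.48 early (limma adjusted p = 0.00021), rose by 2.06 from the fourth to the fifth window (3.3e-08) and ended 1.31 above the start (0.00011). SELENOP, a selenium carrier listed under its older symbol SEPP1, was detected on none of the 4 arrays of 12 to 21 hours and ended 1.08 above the start (adjusted p = 0.010), but was not called without the 3 hour array (0.98, adjusted p = 0.073). PRDX2 was called lower at the end, but its row combines several probes and was detected on neither array of 0 to 3 hours, and no fold is given.

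Of 6 tested genes of NADPH supply, 3 had a called curve. IDH1, cytosolic isocitrate dehydrogenase, and PGD, of the pentose phosphate pathway, fell to the end by 0.94 (limma adjusted p = 0.00035) and by 0.80 (9.6e-05). TKT, transketolase, rose by 0.22 (adjusted p = 0.012), but was not called without the untreated array (0.22, adjusted p = 0.060) or without the 3 hour array (0.22, 0.061).

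In the detoxification list 13 of 16 tested genes had a called curve. ABCC3 rose by 1.56 to the end (limma adjusted p = 9.3e-10), while its other probe, detected on 7 arrays, differed by 0.17. ALDH3A2, a fatty aldehyde dehydrogenase, rose by 0.94 (adjusted p = 1.1e-06). AKR1A1, an aldehyde reductase, fell by 0.79 (4.9e-07), in a row that combines several probes by a rule that is not stated. Of 4 tested genes of superoxide and peroxide removal, CAT, catalase, rose by 0.45 (adjusted p = 0.0065), but was not called without the 3 hour array (0.32, adjusted p = 0.12). SOD2, the mitochondrial superoxide dismutase, differed by -0.22 (adjusted p = 0.21).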

How the data were processed

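RNA of 16 MCF10A cultures was hybridized to Illumina human Ref8v2 arrays. The authors deposited probe intensity values on a linear scale, not normalized across arrays, together with detection p-values set against the negative control beads. For the paper they applied quality control and then quantile normalization. The summary software and genome build are not given in the sources used here, so no array coordinates are printed.

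In R 4.3.3 with limma 3.58.1 the negative control mean and SD of each array were inferred from detection p-values of the single-probe rows (multiples of 1 in 708 within 0.001). The background was removed with normexp and an offset of 16 was added, which compresses dim probes. Log2 values were then taken and quantile normalized across arrays. Rows detected (p under 0.05) on at least 3 arrays were tested, 11957 of 20589. Curves over time were natural cubic splines with 3 degrees of freedom, tested with limma's moderated F statistic, and windows a fit of 5 means (11 residual degrees of freedom), both with an intensity trend. P-values were adjusted by Benjamini-Hochberg over all tested probes. Windows hold neighbouring times of 1 array each, not replicates, and the p-values measure only the spread between these arrays. Where the dim side was not detected, the array's lowest detected intensity was the floor and a fold is a lower bound.

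The members, the lists and the windows were chosen with earlier results of these data known. By rule the text names the 10 genes, up to 3 genes of each list with a called curve and the largest change between the ends, and the probes most and least correlated with HMOX1. Of several probes the brightest stands for a gene. Scripts were tested on simulated data. The alternatives were an offset of 50 or no background correction, cyclic loess or median scaling, stricter and no filters, other curves and windows, no intensity trend, and each array left out. Arrays limit the precision by their number, and no sequencing depth applies. Figures were drawn with matplotlib 3.10.9.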

Additional observations from a re-analysis of the deposited data

How the results depend on the processing

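The 22 called results of single genes of the list were recomputed under the alternatives, 516 values in all. Of these, 491 kept the call, 25 lost it and 0 changed direction. Tests of a curve have no direction. Leaving out an array outside the 2 windows compared cannot move the log2 change, so many of these values could not turn. The log2 range of HMOX1, 4.95, was 3.23 without background correction, 4.32 with an offset of 50, and between 4.56 and 4.95 with 1 array left out, the lowest without the 12 hour array. A straight line in time, which cannot follow a peak or a dip, called 2 genes of the list and 18 pathway genes in place of 4 and 49. From 12 to 21 to 24 to 33 hours, median scaling called 1 gene in place of 0. With 1 array left out, the genes called were 2 to 6 from 0 to 3 to 6 to 9 hours, 2 to 4 for the next step, 0 to 0 for the step after it, 2 to 5 from 24 to 33 to 36 to 45 hours and 6 to 6 between the ends. With 4 windows, 36 to 45 against 0 to 9 hours, 4 genes were higher and 0 lower, the change of NQO1 was 0.21, and TXNRD1 (0.26, limma adjusted p = 0.21) and NFE2L2 (-0.18, adjusted p = 0.43) were not called. Over the other lists 104 called results gave 2080 values under the background, scaling and leave-one-out settings, of which 125 lost the call and 2 turned. The same limit holds there for arrays outside the windows compared. A chip as a block was not run, because no chip is named. No paired analysis was possible because each time point has 1 array, all with replicate number 1, so the groups compared share fewer than 2 numbers.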
